A study of Mus musculus with 6 samples.

Results

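The 39 Hox genes of the mouse are described here, chosen by their GENCODE vM21 symbols out of 50686 gene identifiers in the count files, together with H3K27me3, the trimethyl mark on lysine 27 of histone H3, over their 4 clusters. HoxA on chromosome 6 holds 11 of them, HoxB on chromosome 11 holds 10, and HoxC on chromosome 15 and HoxD on chromosome 2 hold 9 each. The cells were primary neural stem cell (NSC) cultures from the subventricular zone of E16.5 mouse embryos, either wild type (NSC) or STOPFloxBmi1;NestinCre (NSC Bmi1Over), in which Cre driven by the Nestin promoter of neural progenitors switches on a Bmi1 transgene. RNASeq was available for 2 cultures of each genotype, and H3K27me3 ChIPSeq for 1 library of each. Gene levels were compared between the cultures. The ChIPSeq peak lists could only be set side by side, because a single library per genotype leaves no replicate error and no test.

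Hox genes encode homeodomain transcription factors that give cells their position along the head to tail axis. In each cluster the genes stand in the order of their expression domains, with paralog group 1 active furthest towards the head and group 13 furthest towards the tail, and the forebrain lies in front of all these domains. H3K27me3 is deposited by Polycomb repressive complex PRC2, of which Ezh2 is the catalytic subunit, and PRC1 complexes, some of which contain Bmi1, bind chromatin that carries the mark. Hox clusters are textbook targets of both complexes in cells that do not use them.

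The promoters of 4 members are shown because they stand for the states of the mark described further on. The sequences are from RefSeq (GRCm38.p6, the build of the mm10 coordinates used throughout), and each is the 250 bases before the transcription start site (TSS) on the strand of the gene, 5′ to 3′, with CpG dinucleotides in capitals. Hoxa5 (chr6:52204588-52204837, minus strand) is among the few members with reads and lay inside a peak in both lists. Hoxa13 (chr6:52260881-52261130, minus strand) had its TSS in a peak in NSC and between peaks in the library labelled NSC Bmi1Over. Hoxb1 (chr11:96365508-96365757, plus strand) had the lowest cover of all members in both lists within 5 kb of the TSS. Hoxd10 (chr2:74691641-74691890, plus strand) lay in the widest Hox peak of the NSC Bmi1Over list.
Hoxa5: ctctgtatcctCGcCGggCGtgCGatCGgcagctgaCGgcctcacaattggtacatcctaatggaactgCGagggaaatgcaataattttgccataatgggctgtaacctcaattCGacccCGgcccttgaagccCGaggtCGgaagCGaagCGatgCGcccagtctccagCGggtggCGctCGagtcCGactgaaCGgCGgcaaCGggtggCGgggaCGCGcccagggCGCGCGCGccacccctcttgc
Hoxa13: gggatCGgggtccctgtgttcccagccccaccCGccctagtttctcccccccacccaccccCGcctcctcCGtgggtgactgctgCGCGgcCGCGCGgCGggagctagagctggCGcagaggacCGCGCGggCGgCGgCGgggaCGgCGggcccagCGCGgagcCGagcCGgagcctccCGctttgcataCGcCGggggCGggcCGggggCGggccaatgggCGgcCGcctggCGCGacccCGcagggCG
Hoxb1: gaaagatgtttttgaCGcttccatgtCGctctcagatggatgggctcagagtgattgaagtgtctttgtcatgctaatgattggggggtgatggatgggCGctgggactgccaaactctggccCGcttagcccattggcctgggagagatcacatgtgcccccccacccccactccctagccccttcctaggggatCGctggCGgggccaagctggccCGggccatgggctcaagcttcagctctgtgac
Hoxd10: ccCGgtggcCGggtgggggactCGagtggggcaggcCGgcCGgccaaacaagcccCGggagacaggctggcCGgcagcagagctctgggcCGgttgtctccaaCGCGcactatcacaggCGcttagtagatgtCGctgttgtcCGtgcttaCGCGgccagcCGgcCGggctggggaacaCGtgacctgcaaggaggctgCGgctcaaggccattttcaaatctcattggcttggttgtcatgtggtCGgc
Within these 250 bases, Hoxa13 had 35 CpG, Hoxa5 28, Hoxd10 20 and Hoxb1 7. The RefSeq table held 24 promoters of 22 members, each 250 bases before to 50 after a start. They had a median of 14.5 CpG and a GC content of 57.7%, and 45.8% of them were rich in CpG (GC content above 50% and an observed to expected CpG ratio above 0.6). Over all 32851 promoters of the table the median was 7 CpG, and 33.3% were rich in CpG.

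Bmi1, the gene targeted by the design, was at 133 and 123 CPM (counts scaled to a common library size, after scaling by the trimmed mean of M-values, TMM) in NSC and at 119 and 113 CPM in the libraries labelled NSC Bmi1Over. The log2 fold change was −0.15 ± 0.12 (SE) and the edgeR adjusted p was 0.463. Under the 11 alternative settings the log2 fold change ranged from −0.30 to −0.098. Higher Bmi1 in the libraries labelled NSC Bmi1Over was thus not seen in the counts of this gene. The reason was not tested, and the groups are named as labelled. Reads counted on genes ranged from 18112100 to 61353076 per library, and NSC Bmi1Over replicates had the lowest and the highest total. Over all genes, 334 of 15521 tested were called at an adjusted p under 0.05 (2.15%), of which 315 were higher and 19 lower in NSC Bmi1Over, and the median log2 fold change was −0.01. Scaling by library size alone gave 346 higher genes among 537 called. Nes, a marker of neural stem cells that encodes the intermediate filament nestin, was abundant in all 4 libraries. It was at 914 and 1147 CPM in NSC and at 1136 and 1048 CPM in NSC Bmi1Over. Not all such markers were abundant. Hes5 was at 10.1 and 7.47 CPM in NSC and 4.11 and 6.21 CPM in NSC Bmi1Over. Prom1 was at 6.36 and 4.98 CPM in NSC and 4.79 and 7.4 CPM in NSC Bmi1Over.

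Transcripts of the Hox genes were close to absent in all 4 cultures. Only 15 reads fell on the 39 genes out of 133369871 reads on all genes. They were 5 in NSC replicate 1, 2 in NSC replicate 2, 3 in NSC Bmi1Over replicate 1 and 5 in NSC Bmi1Over replicate 2, so the groups overlapped. Without TMM scaling, the summed level of the 39 genes was 0.17, 0.081, 0.166 and 0.0815 CPM in that order. The exact 95% Poisson interval was 0.0554 to 0.398 in NSC replicate 1 and 0.0265 to 0.19 in NSC Bmi1Over replicate 2, and all 4 intervals overlapped. Pooled, NSC had 7 reads (0.13 CPM) and NSC Bmi1Over had 8 (0.101 CPM), and the ratio of NSC Bmi1Over to NSC was 0.775 with an exact 95% interval of 0.246 to 2.51. These intervals cover counting error only. With 2 cultures against 2, an exact permutation test cannot give a two-sided p below 0.333, and none was run on these sums.

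Of the 39 members, 32 had 0 reads in every library (82.1%), against 21.9% of the 21841 protein-coding genes in the count files. No member had enough reads to be tested, and no member reached 10 reads over the 4 libraries. The members with reads are named here because 7 in all had any, and were picked after their values were seen. Hoxa5, which acts in the neck and upper trunk, had no read in NSC and 1 and 2 reads in NSC Bmi1Over replicates 1 and 2. Hoxa3 had 1 read in each NSC culture and none in NSC Bmi1Over. Hoxa2, Hoxa4, Hoxa7 and Hoxd8 had 1 read each, in a single library. All but 1 of the reads were thus on HoxA, and no count above 3 was seen in any library.

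As RPKM, which is CPM per kb of exon, summed over the reads of the 4 libraries, Hoxa5 was at 0.012 RPKM (95% Poisson interval 0.00247 to 0.035). Hoxa4 was at 0.0047 RPKM and Hoxa3 at 0.00249 RPKM. Summed over a cluster, HoxA had 14 reads over the 4 libraries and HoxD had 1. HoxB and HoxC had 0 reads, and 0 reads allow up to 0.0225 CPM at a floor of 3 counts over the 4 libraries. In bulk cultures, a transcript in few cells cannot be told apart from little transcript in every cell. When reads on both strands were counted separately and summed, the reads on the members came to 19 in place of 15. Some members share exon bases with other genes, and reads there were set aside as ambiguous in the unstranded counts. Such overlap on either strand was widest for Hoxd3 (62.9% of its exon bases), Hoxb3 (52.9%) and Hoxd4 (52.3%). All of it was with genes on the other strand for Hoxb3, but only 8.78% of the exon bases of Hoxd3 and 11.8% of those of Hoxd4 were, as both also share exons with each other. The 3 genes had 0 reads in the stranded columns too, which resolve overlap between strands but not within one.

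**Figure D1:**
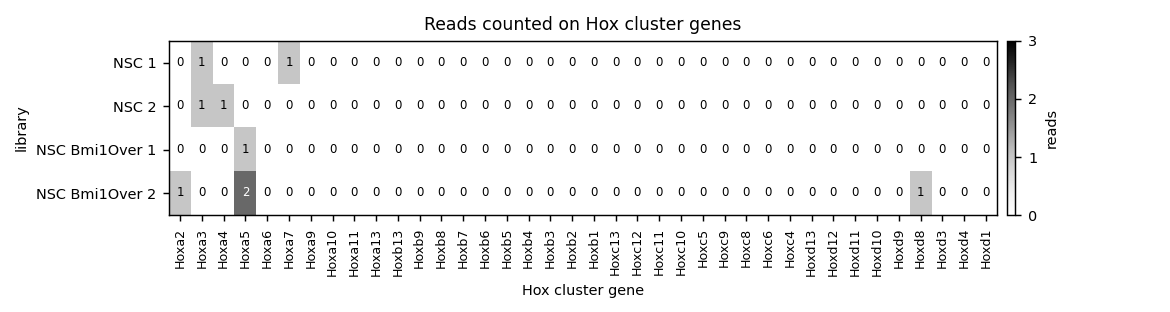
Reads counted on 38 Hox genes (columns, in genome order within HoxA, HoxB, HoxC and HoxD) in each RNASeq library (rows). The 6 genes with any read in the grid are Hoxa2 to Hoxa5, Hoxa7 and Hoxd8, and no cell is above 2 reads.

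Most of the other genes annotated within the 4 spans had no reads either. Of 46 such genes, many of them miRNA or misc_RNA entries, 39 had 0 reads, and 6 of the 7 with reads lay in HoxA. Hotairm1, a noncoding RNA at the 3′ end of the cluster, had 6 and 3 reads in NSC and 0 and 6 in NSC Bmi1Over. Hoxaas2, an antisense RNA in the Hoxa3 region, had 2, 1, 2 and 2 reads. In all, 29 reads fell on these noncoding genes of HoxA, more than on its coding genes. The seventh gene was the processed pseudogene Gm11539 between Hoxb13 and Hoxb9, with 6 and 6 reads in NSC and 3 and 7 in NSC Bmi1Over, whose reads may belong to a near-identical copy elsewhere. It lay in a break of the mark in both peak lists. Hotair, Haglr, Hoxb3os and Hoxb5os, noncoding RNAs of the other clusters, had 0 reads.

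In the NSC list, H3K27me3 covered HoxA, HoxC and HoxD almost without interruption, and HoxB with a wide break. HoxC (chr15:102921103-103036852) lay wholly within a single peak of 142094 bp, the widest of the 12982 peaks of that list. The widest peaks in HoxB, HoxD and HoxA came next, with 96453, 75156 and 73488 bp, so the clusters held the 4 widest peaks and 6 of the 10 widest. HoxA (chr6:52155590-52260880) was covered over 99.5% of its 105291 bp by 3 peaks, HoxD (chr2:74668310-74765142) over 98.6% of its 96833 bp by 4 peaks, and HoxB (chr11:96194316-96368256) over 72.4% of its 173941 bp by 11 peaks. The fold enrichment of the peaks, as called by MACS2 against its own background and weighted here by length, was 10.5 in HoxA, 9.48 in HoxD, 9.46 in HoxC and 8.48 in HoxB. The median peak of the list had a length of 355 bp and a fold of 4.06.

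The mark ran past the outermost genes. When peaks less than 1 kb apart were joined, the NSC domain of HoxC measured 177488 bp and reached 25539 bp beyond Hoxc13 and 36199 bp beyond Hoxc4. The domain of HoxA measured 149747 bp and reached 36358 bp beyond Hoxa13, towards Evx1. That of HoxD measured 136324 bp and reached 26535 bp beyond Hoxd13, past Evx2, and 12956 bp beyond Hoxd1. HoxB fell into 4 stretches, of which the main one measured 107714 bp and held the TSS of Hoxb9 to Hoxb2, while Hoxb13 and Hoxb1 each lay in a stretch of their own, of 40933 and 9409 bp.

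All 3 breaks above 1 kb in the NSC list were in HoxB. The largest, chr11:96208309-96247191 (38883 bp), and the one next to it, chr11:96247457-96250222 (2766 bp), lay between Hoxb13 and Hoxb9, where no other Hox gene is found. The last, chr11:96357937-96361863 (3927 bp), lay between Hoxb2 and Hoxb1. These breaks had 1.06 CpG per 100 bp and 48.1% of their bases were soft-masked as repeats in the reference, against 2.58 CpG per 100 bp and 14.9% in the covered bases of the 4 clusters. The other 12 breaks were of 1 kb or less, with 41.1% of their bases masked. The authors discarded reads that mapped to several places, and the part of this step in the breaks was not tested.

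The library labelled NSC Bmi1Over marked the same clusters with many more and shorter peaks. HoxA had 23 peaks against 3 in NSC, HoxB 60 against 11, HoxC 37 against 1 and HoxD 38 against 4, in all 158 against 19. Most of the breaks between them were short. When peaks less than 1 kb apart were joined, 15 stretches remained against 7 in NSC, 4 of them in HoxA, 7 in HoxB and 2 each in HoxC and HoxD, with the longest in HoxD (101989 bp), HoxB (89684 bp) and HoxC (81554 bp). The cover fell to 89.5% of HoxA, 57.2% of HoxB, 90.2% of HoxC and 85.2% of HoxD, and over the 4 spans of 491815 bp it was 77.4% against 89.85%. The widest Hox peaks were of 13902 bp in HoxD, 11934 bp in HoxC, 11912 bp in HoxA and 8987 bp in HoxB, and took ranks 3, 4, 5 and 16 by length among 6810 peaks. The weighted fold was 6.6 in HoxA, 6.31 in HoxC, 6.23 in HoxD and 5.93 in HoxB, lower than in NSC in each cluster. These differences are between 2 libraries and not between replicated conditions, and depth cannot be told apart from the genotype here. The methods of the study give aligned read totals that were unequal between its replicates, with 1 NSC replicate above and the other below both of NSC Bmi1Over, and say that the weakest samples were left out, but not which total belongs to each peak list.

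**Figure D2:**
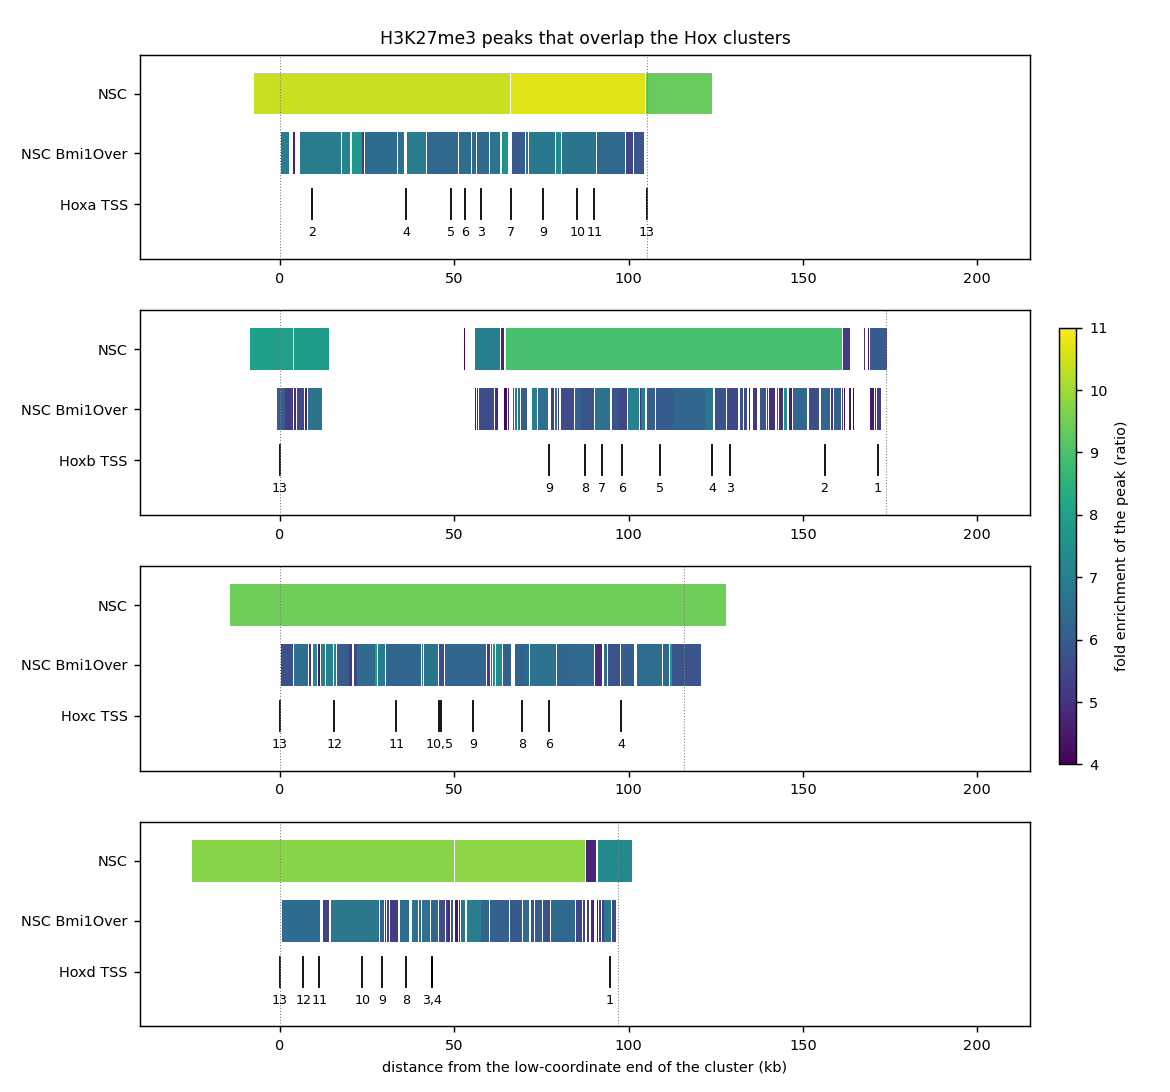
H3K27me3 peaks over the Hox clusters in the NSC and NSC Bmi1Over lists, drawn to scale as distance in kb from the low-coordinate end of each cluster, with the colour giving the fold enrichment of each peak. Dotted lines mark the ends of the clusters and black ticks the TSS of 38 members, numbered by paralog group. NSC has 1 to 11 peaks per cluster and NSC Bmi1Over has 23 to 60, and both lists have their widest break between Hoxb13 and Hoxb9.

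The positions of the mark were shared to a large part. Of the cluster bases covered in NSC Bmi1Over, 99.7% were also covered in NSC, beside 85.8% of the bases in all other NSC Bmi1Over peaks and 99.8% of those in other peaks of 4 to 10 kb. Of the cluster bases covered in NSC, 85.9% were also covered in NSC Bmi1Over. For all other peaks of the NSC list, 33.9% of the bases were also in NSC Bmi1Over peaks. That share rose with the length of the peak, from 15% in peaks under 4 kb to 52.4% in peaks of 4 to 10 kb and 73.7% in the 143 peaks of 10 kb or more, and it was 85% for the 19 peaks at the clusters. The clusters held 3.83% of all bases in NSC peaks and 7.92% of those in NSC Bmi1Over peaks.

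**Figure D3:**
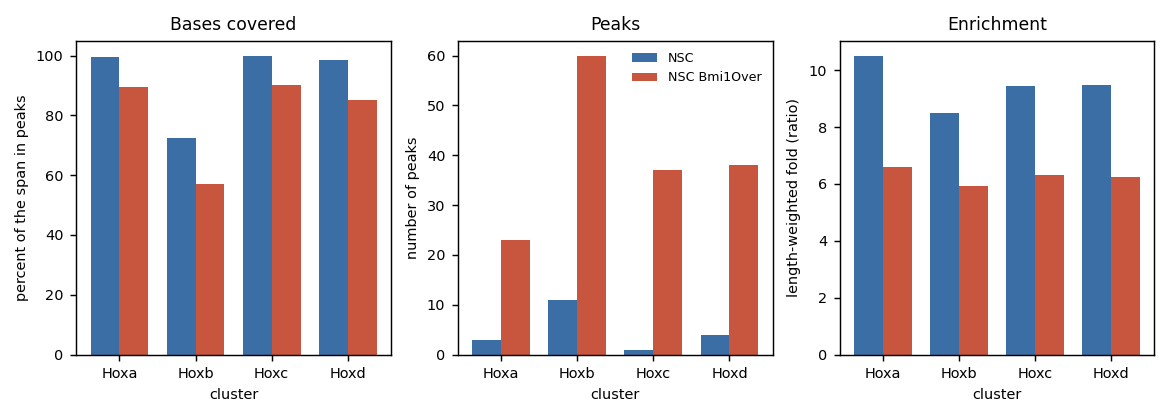
Percent of the span of each cluster covered by peaks (left), number of peaks (middle) and length-weighted fold enrichment (right) in the NSC and NSC Bmi1Over lists, with 1 library behind each bar and therefore no error bars. Cover and fold are lower and the number of peaks is higher in NSC Bmi1Over in all 4 clusters.

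Every member was marked in both lists, in the sense that a peak lay within 5 kb of a TSS. Among all 22015 protein-coding genes, 8.83% were marked in this way in NSC and 4.38% in NSC Bmi1Over. The TSS of a gene is taken here as its outermost annotated start, which for some members, such as Hoxa3, Hoxa7, Hoxc4, Hoxc5 and Hoxd4, is that of a long form. The TSS itself lay inside a peak for 39 of 39 members in NSC and for 32 of 39 in NSC Bmi1Over, against 2.98% and 0.899% of all protein-coding genes. With any annotated start of a gene, a choice made after the data were seen, it was 39 and 33 members. The peak over the TSS had a median fold of 9.46 for the members in NSC and of 5.32 for the 616 other genes with a TSS in a peak. Those peaks were shorter, with a median of 2485 bp, and for the 122 of these genes in a peak of at least 10 kb the median fold was 8.43. In NSC Bmi1Over the medians were 6.38 and 5.50, the latter over 166 other genes, and it was 6.42 for the 2 of these in a peak of at least 10 kb. Of the 1898 other marked genes with counts in NSC, 12.1% had 0 reads in all 4 RNASeq libraries, a lower share than among the unmarked (22.7%), while among the members it was 82.1%. These are not like classes, as the 1898 genes needed only a peak within 5 kb of a TSS. The share among other genes with the TSS inside a wide peak was not computed.

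The members with a TSS between peaks in NSC Bmi1Over included Hoxa4, Hoxa7, Hoxa13, Hoxb9, Hoxc13 and Hoxd13, and thus all members of group 13 except Hoxb13. For Hoxa7, whose outermost start lay in a break of 1154 bp, this depends on the start used, as 3 of its 5 annotated starts and its RefSeq start, 3281 bp away, lay in peaks. The break was narrowest at Hoxb9 (373 bp) and Hoxc13 (362 bp). In the 5 kb on either side of the TSS, the bases in peaks were fewest for Hoxb1, with 62.9% in NSC and 22.2% in NSC Bmi1Over. Hoxd1 followed with 94.4% and 60.1%. The median over all members was 100% in NSC and 89.4% in NSC Bmi1Over. Groups 1 to 4 had a median of 83.2% in NSC Bmi1Over, groups 5 to 9 of 91.4% and groups 10 to 13 of 91.2%. Several members share a peak, so these values are not independent.

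The short breaks of the NSC Bmi1Over list ranged from poor to very rich in CpG. Of its 154 breaks inside the clusters, 144 lay wholly within NSC peaks and 143 were of 1 kb or less. Pooled, the bases of these short breaks had 3.62 CpG per 100 bp against 2.42 in the covered bases. The median short break had 1.74 per 100 bp, and 60 of the 143 were above the pooled value of the covered bases. A median over breaks and a value pooled over bases are not like measures. CpG was uneven along the clusters as a whole too. Of their 500-bp windows, 303 had under 1 CpG per 100 bp, 231 had 1 to under 2 and 39 had 8 or more. The pooled value of the short breaks was raised by a minority, of which 22 breaks had at least 8 CpG per 100 bp, while 46 had under 1. In 500-bp windows along the clusters, the cover in NSC was 84% at under 1 CpG per 100 bp, 95% at 2 to under 4 and 98.8% at 8 or more. In NSC Bmi1Over it was 71.5%, 84% and 61.4%, with the highest cover, 87.4%, at 4 to under 8. Without the windows of the widest HoxB break, the cover at under 1 CpG per 100 bp was 95.6% in NSC and 81.8% in NSC Bmi1Over, so that most of the rise in NSC came from that break, while the top class held none of its windows. The 39 windows in the top class thus had the lowest cover of any class in NSC Bmi1Over, and 30.8% of them were wholly in peaks, against 97.4% in NSC. Coding exons of the members, with 7.67 CpG per 100 bp, were covered over 99.2% in NSC and 77.8% in NSC Bmi1Over. Their other exon bases, with 2.47 CpG per 100 bp, were covered over 99.4% and 90.4%. Recovery of GC-rich fragments in either library was not tested.

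**Figure D4:**
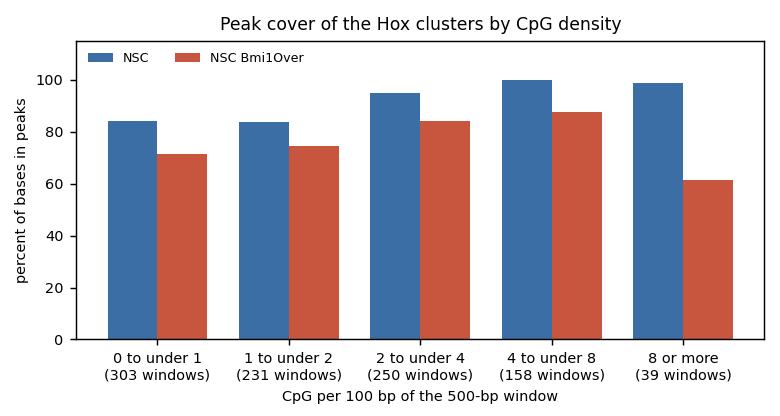
Percent of bases in peaks for 500-bp windows along the 4 Hox clusters, grouped by the number of CpG per 100 bp (number of windows below each group), in the NSC and NSC Bmi1Over lists. In NSC the cover is 98.8% in the 39 windows with the most CpG, and in NSC Bmi1Over it is 61.4% there, the lowest of the 5 groups.

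A break of 300 bp or less is shown as an example of the CpG-rich minority, from the reference genome (GRCm38.p6), plus strand, with CpG in capitals. It is the NSC Bmi1Over break of that size with the most CpG per 100 bp among those that touch no untranslated region. It lies in a coding exon of Hoxc9, where a long form of Hoxc5 also runs (chr15:102981887-102982167, 44 CpG in 281 bp), and lay wholly within an NSC peak.
Hoxc9 break, NSC Bmi1Over: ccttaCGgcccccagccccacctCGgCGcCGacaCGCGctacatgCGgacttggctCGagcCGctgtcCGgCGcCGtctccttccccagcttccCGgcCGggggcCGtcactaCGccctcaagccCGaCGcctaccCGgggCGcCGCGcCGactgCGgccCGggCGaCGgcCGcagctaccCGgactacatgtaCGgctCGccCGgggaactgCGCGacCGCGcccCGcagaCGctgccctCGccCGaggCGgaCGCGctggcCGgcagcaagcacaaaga
The Hoxc9 break reads as a dense run of CpG.

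The nearest protein-coding genes outside the clusters, taken as 3 on each side of each cluster, fell into silent and expressed genes. They lay from 8753 bp (Evx2) to 910371 bp (Nfe2l2) from the end of a cluster. Of these 24 neighbours, 19 had enough reads to be tested, none of the 19 was called between the groups (edgeR, adjusted p under 0.05), 4 had an unadjusted p under 0.05 (24.2% of all genes did), and 17 of the 19 had a log2 fold change below 0, against 51.4% of all genes. Over the alternative settings, 14 to 18 of the 19 were below 0. Their median log2 fold change was −0.20, beside −0.01 for all genes, and was −0.05 without NSC Bmi1Over replicate 2. The 5 untested neighbours were Evx1 and Evx2, homeobox genes next to HoxA and HoxD, Calcoco2 and Ttll6 next to HoxB, and Skap1 beyond Hoxb1. Evx1, Evx2 and Calcoco2 had 0 reads, Skap1 had 1 read in NSC Bmi1Over replicate 2, and Ttll6 had 1 read in each library. All 5 had an NSC peak within 5 kb of a TSS.

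The 19 expressed neighbours ranged from 2.26 RPKM (Skap2) to 197 RPKM (Hnrnpa1, an RNA-binding protein), as means of the 4 libraries, and even the lowest was far above the 0.012 RPKM of Hoxa5. Only 3 of them, Skap2, Smug1 and Mtx2, had an NSC peak within 5 kb, at 145, 574 and 949 bp from the TSS. Lnpk fell just outside this limit, with an NSC peak 5175 bp from its TSS. Mtx2, a mitochondrial import gene next to Hoxd1, was at 8.62 and 8.23 RPKM in NSC and 7.58 and 6.57 RPKM in NSC Bmi1Over (log2 fold change −0.26 ± 0.13 SE, edgeR adjusted p = 0.271). The largest changes among the neighbours were of Lnpk, next to Evx2, and of Hibadh, beyond Evx1. Lnpk was at 5.32 and 6.33 RPKM in NSC and at 7.44 and 8.71 RPKM in NSC Bmi1Over, without overlap, but did not pass the test (log2 fold change 0.47 ± 0.14 SE, edgeR adjusted p = 0.0964, and called in 3 of the 11 alternatives). Hibadh was at 4.42 and 3.74 RPKM in NSC and at 3.32 and 2.59 RPKM in NSC Bmi1Over (log2 fold change −0.47 ± 0.16 SE, edgeR adjusted p = 0.122, and called in 3 of the 11 alternatives). The others were, from the highest mean down, Atp5g3, Hnrnpa3, Cbx5, Atp5g2, Nfe2l2, Cbx1, Atp5g1, Cbx3, Tax1bp1, Atf7, Calcoco1, Snx11 and Snx10.

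**Figure D5:**
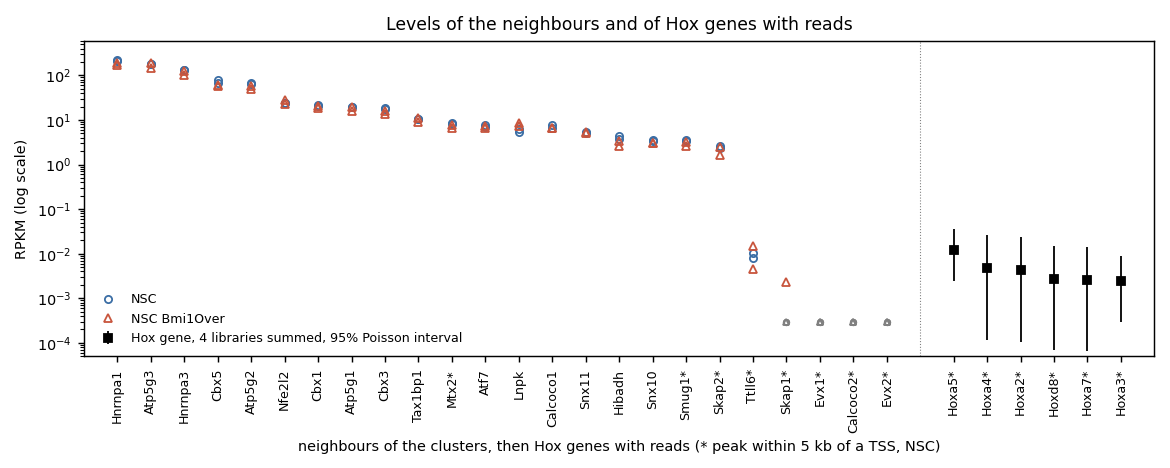
RPKM on a log scale of the 24 neighbours in each library (left of the dotted line, circles NSC, triangles NSC Bmi1Over, small grey symbols at the bottom for 0 reads) and of 6 Hox genes with reads (right, reads of the 4 libraries summed, with exact 95% Poisson intervals). A star marks genes that had an NSC peak at most 5 kb from a TSS. The expressed neighbours lie at 2.26 RPKM or more as means, and the Hox genes drawn at 0.012 RPKM or less.

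Genes that work with Hox proteins or act on the clusters were expressed. Their lists were chosen with earlier results of these data known and support nothing on their own. Of the 9 cofactors that bind DNA with Hox proteins (Meis, Pbx and Pknox genes), all were tested, none was called and the median log2 fold change was −0.28. Meis2, among the most abundant, was at 66 and 63.9 CPM in NSC and at 36 and 48.2 CPM in NSC Bmi1Over (edgeR adjusted p = 0.0704, and called in 6 of the 11 alternatives). None of the 12 PRC2 genes was called (median −0.07), and Rbbp4, a histone-binding subunit and the most abundant, was at 254 and 248 CPM in NSC and 238 and 186 CPM in NSC Bmi1Over, followed by Rbbp7. Phf1, a PRC2-associated gene named after its values were seen, was at 16.4 and 28.5 CPM in NSC and 32.1 and 50.6 CPM in NSC Bmi1Over (log2 fold change 0.90 ± 0.28 SE, edgeR adjusted p = 0.103, and called in 5 of the 11 alternatives). None of the 20 PRC1 genes was called (median −0.10), with Phc2 and Cbx6 the most abundant, and Pcgf2 (log2 fold change 0.81, adjusted p = 0.145) was called in 4 of the 11 alternatives. With the replicate number as a block, 3 cofactors, 1 PRC2 gene, 4 PRC1 genes and 3 of the Trithorax and demethylase genes were called. Among 12 Trithorax and H3K27 demethylase genes, which act against Polycomb, 11 were tested and none was called (median −0.13), with Kmt2a and Kmt2d the most abundant. None of the 9 genes for chromatin boundaries, led by the cohesin genes Rad21 and Smc1a, was called (median −0.21).

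Regulators of Hox genes by retinoic acid and segmentation had 11 of 18 members tested and none called (median −0.00), led by Gdf11 and Rxrb. Gdf11, a secreted factor that sets trunk position, was at 40.9 and 50.2 CPM in NSC and 66.8 and 79 CPM in NSC Bmi1Over, without overlap (log2 fold change 0.68 ± 0.15 SE, edgeR adjusted p = 0.0556, and called in 5 of the 11 alternatives). Of 11 homeobox genes related to the Hox genes (Evx and ParaHox genes, Gbx1, Gbx2 and Mnx1), 7 had 0 reads, and Gbx1, Gbx2 and the ParaHox gene Gsx1 were tested and not called (median 0.35). Of 18 noncoding genes named for the clusters, 17 were listed, 13 had 0 reads and only Halr1, just outside HoxA, was tested. It had 10 and 5 reads in NSC and 13 and 25 in NSC Bmi1Over, without overlap in CPM (log2 fold change 1.03 ± 0.50 SE, edgeR adjusted p = 0.246).

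Position markers were set beside the silent Hox genes. Of 15 forebrain genes, 10 were tested, with a median of −0.18, and 6 were called with the replicate number as a block. Lhx2 was at 56.5 and 58.7 CPM in NSC and at 41.7 and 50.8 CPM in NSC Bmi1Over, and Pax6, also expressed in the hindbrain, at 38.5 and 36 and at 31.9 and 29.6 CPM. Nkx2-1, a gene of the ventral forebrain, rose from 0.38 and 0.316 CPM to 1.43 and 1.49 CPM (log2 fold change 2.05 ± 0.36 SE, edgeR adjusted p = 0.0374) and was the only gene of this list called in the main edgeR test, without that block. Without NSC replicate 1 its adjusted p was 0.0638 and without NSC Bmi1Over replicate 2 it was 0.108. Dlx2, another gene of the ventral forebrain, named after its values were seen, was at 1.65 and 1.26 CPM in NSC and 0.171 and 0.507 CPM in NSC Bmi1Over (log2 fold change −1.86 ± 0.44 SE, edgeR adjusted p = 0.0642, and called in 6 of the 11 alternatives), and the log2 fold change of Dlx1 was −0.68 (adjusted p = 0.296). Of 15 hindbrain and spinal cord genes, 8 were tested and none was called (median 0.02), with summed levels of 39.4 and 30 CPM in NSC and 31.6 and 26.3 CPM in NSC Bmi1Over. Egr2, which marks hindbrain segments but is also induced by growth factors, was the largest part of it in NSC but not in every NSC Bmi1Over culture, with 16.6 and 9.29 CPM in NSC and 4.62 and 6.19 CPM in NSC Bmi1Over (edgeR adjusted p = 0.0639, and called in 6 of the 11 alternatives), and Gbx2 came next in mean level.

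Other cell types were checked in the same way. Of 12 neural stem cell markers, none was called (median −0.20), though 5 were with the replicate number as a block, and Slc1a3 and Vim led. Among 6 astrocyte markers, Slc1a2 was the most abundant, and Aldh1l1, a folate enzyme, fell from 122 and 94.1 CPM to 65.9 and 53.2 CPM (log2 fold change −0.86 ± 0.17 SE, edgeR adjusted p = 0.044), with a list median of −0.02. Without NSC replicate 1 its adjusted p was 0.124 and without NSC Bmi1Over replicate 2 it was 0.0897. No gene was called among the 9 neuronal markers (7 tested, median −0.07, led by Map2 and Tubb3) or the 8 of the oligodendrocyte lineage (7 tested, median 0.18, led by Olig1 and Olig2). The same held for the 9 mesenchymal markers (4 tested, median −0.48, led by Prrx1 and Acta2), whose summed level was 46.1 to 49.9 CPM in NSC and 32.5 to 41.1 CPM in NSC Bmi1Over. Most of this sum was Prrx1 alone, with 46.03 and 43.44 CPM in NSC and 28.77 and 39.25 CPM in NSC Bmi1Over. Summed microglial markers were at 1.33 to 3.16 CPM over the 4 libraries (1 of 7 tested, log2 fold change of P2ry12 0.82, with Csf1r next, but a sum of 10.0 to 12.6 CPM in the stranded columns, mostly from Csf1r), endothelial ones at 3.96 to 6.8 CPM (3 of 6 tested, median 0.57, led by Kdr and Tek) and erythroid ones at 0.4 to 0.602 CPM (1 of 7 tested, log2 fold change of Alas2 0.30). None of these was called.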

How the data were processed

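For RNASeq, reads were trimmed with Trim Galore and aligned to mm10 with STAR, and the authors deposited read counts per gene for 2 cultures of each genotype. The first rows of each table name no gene (unmapped, multimapped, outside genes or ambiguous reads) and were left out, so that 65.9% to 72.2% of all reads remained. For ChIPSeq, per the submitters' processing notes, reads were aligned with Bowtie2 2.3.4 and broad peaks were called with MACS2, in 1 library per genotype. The deposited peak lists give a fold enrichment (a ratio) and the −log10 of the p-value and q-value of each peak. The deposited display score was not used. Samples of tumour cells were not analysed here.

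GENCODE vM21, of the same build, gave names and positions for 50462 of 50686 identifiers. The unstranded counts were used. They were fitted in R 4.3.3 with edgeR 4.0.16 (filterByExpr, TMM, quasi-likelihood F-test, Benjamini-Hochberg adjustment over 15521 genes). DESeq2 1.42.0 was an alternative. Standard errors are the absolute log2 fold change over the root of F. The study describes the cultures of a genotype as biologically independent, and p-values measure the spread between these 2 cultures each. On counts simulated for this comparison (15285 genes), the test recovered 80.4% of 2-fold and 93.9% of 4-fold changes. Of its calls, 8.56% were false, above the threshold of 0.05. The simulation took the spread of each gene from these data and planted as many rises as falls. The calls in the data were 315 higher and 19 lower, so recovery there may differ. Peaks and sequences were handled in Python 3.11.15. A member was marked when a peak overlapped the 5 kb on either side of any of its TSS by at least 1 bp. RPKM used the union of exons. The study sequenced 2 ChIPSeq replicates per genotype at unequal depth and kept 1 after quality checks. Which read total belongs to each peak list is not given in the sources used here.

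Members, gene lists and tests were chosen with earlier results of these data known. All members were analysed and counted. Some genes and sequences that these rules name, 1 member among them, are not reported here. Of other genes, the called ones and the 2 most abundant per list are named, with all neighbours and Bmi1. Of the peaks, the widest in each cluster and the NSC breaks above 1 kb are named. Other genes and the CpG windows were picked after their values were seen.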

Additional observations from a re-analysis of the deposited data

How the results depend on the processing

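No Hox gene was called under any of the 11 alternatives to the edgeR test, because no member had more than a few reads, and this says nothing of the stability of a difference. With genes of at least 1 read in any library, 7 members entered the test and 0 were called or had an unadjusted p under 0.05. All 39 members stayed marked under each limit on peaks. The reads and summed CPM of the members kept within their counting intervals with the stranded columns or library size alone. The cover of the clusters, 89.85% in NSC, was 89.0% with peaks of a fold of at least 5, 89.5% with peaks of at least 1000 bp, 90.7% with gaps of up to 1 kb joined and 89.7% with 10 kb added on each side. In NSC Bmi1Over, with 77.4%, it was 74.2%, 71.1%, 87.4% and 76.2% in the same order, and 75.9% with a −log10 q of at least 3. It stayed below that of NSC under each of these.

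Of all genes, 334 were called, against 1488 by DESeq2's Wald test, 537 with library size alone, 2356 with genes of at least 1 read, 3459 with the replicate block, and 176 to 2546 when each culture was left out (lowest without NSC replicate 1, highest without NSC Bmi1Over replicate 1). Of the neighbours, 0 were called, but 2 with genes of at least 1 read (Lnpk and Hibadh), and 0 to 3 when each culture was left out (Lnpk, Skap2 and Hibadh, 3 in all, without NSC Bmi1Over replicate 1). Of the list genes, 2 were called, against 8 by DESeq2's Wald test, 5 with library size alone, 11 with genes of at least 1 read, and 1 to 17 when each culture was left out (1 without NSC replicate 1, 13 without NSC replicate 2, 17 without NSC Bmi1Over replicate 1). Library size alone moved the median of all genes to −0.17. With the replicate number as a block, the replicate block gave 0 Hox genes, 4 neighbours (Lnpk, Cbx3, Hibadh and Atp5g2) and 29 list genes. Among these were 6 forebrain genes, 5 neural stem cell markers, 2 regulators by retinoic acid and segmentation, and 2 astrocyte markers. The hindbrain, neuronal, oligodendrocyte and mesenchymal lists had 1 each. No label says that a number marks a shared litter, batch or day, so the samples were not treated as pairs. Deviations of samples with the same number correlated at 0.17 over 2 pairs, which does not settle whether they are paired. Where a culture was left out, the lone sample was assumed to vary like the other group. The causes were not tested. The counts limit any statement on the members to levels near 1 read per library.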
